A study of Homo sapiens with 6 samples.

Results

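The genes described here are 9 regulators of the p53 and RB pathways: MDM2, MDM4, CDKN1A, RB1, RBL1, RBL2, E2F1, E2F3 and E2F4. They were taken by gene symbol, by a rule that uses no measured value, because they belong to the pathways that the adenoviral E1 genes of HEK293 act on. All 9 of them were among the 8121 genes of the translational efficiency table, and 8 were among the 9570 mRNAs of the occupancy table, in which RBL1 had no entry. Ribosome profiling, which sequences the stretches of mRNA protected by ribosomes (RPFs), was carried out in HEK293 cells with 3 replicates, and total RNA was sequenced from the same lysates, which gave 6 samples. According to the study's methods, the cells were treated with cycloheximide before lysis. The sample titles call all 6 a control and name no second condition, so the comparisons are between mRNAs of the same cells. Of 7 genes known to be expressed in HEK293, 6 were listed in the tables and PAX2 was not. The keratin genes KRT8 and KRT18, which epithelial cells also express, were among these 6. Of 7 genes typical of blood, liver, islet or epithelial cells 0 were listed, with EPCAM as the only epithelial gene looked for. Nothing in the labels states whether the replicates were separate cultures, so the spread and the p-values describe these samples and may be technical.

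HEK293 is a human embryonic kidney line that was transformed with a piece of adenovirus DNA and stably expresses its E1A and E1B proteins. E1A binds the RB proteins and releases E2F transcription factors from them, and E1B proteins counter the p53 response that this release provokes. In uninfected cells, MDM2 marks p53 for degradation and MDM4 holds its transcriptional activity down, while CDKN1A, a p53 target, encodes the inhibitor of cyclin-dependent kinases p21. RB1 encodes the retinoblastoma protein, RBL1 and RBL2 encode its relatives p107 and p130, and all of them hold E2F factors on promoters of cell cycle genes until they are phosphorylated.

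Translational efficiency (TE) is the ratio of RPFs to total RNA of a gene in the same replicate, a value without unit. TE of the 9 mRNAs ranged 40.1-fold between the means, from 0.0468 for MDM4 to 1.87 for RB1, around a median of 0.383 for all genes. RB1, E2F3 and RBL1 lay above this median, and RBL2, E2F1, CDKN1A, E2F4, MDM2 and MDM4 lay below it. All 9 differed from the median at an FDR of 0.05 (limma with Benjamini-Hochberg adjustment over all genes), 3 higher and 6 lower. Since 89.3% of all genes differed from it in either direction, 44.7% higher and 44.6% lower, a call by itself says little about these mRNAs, and the sizes below carry the description.

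**Figure D1:**
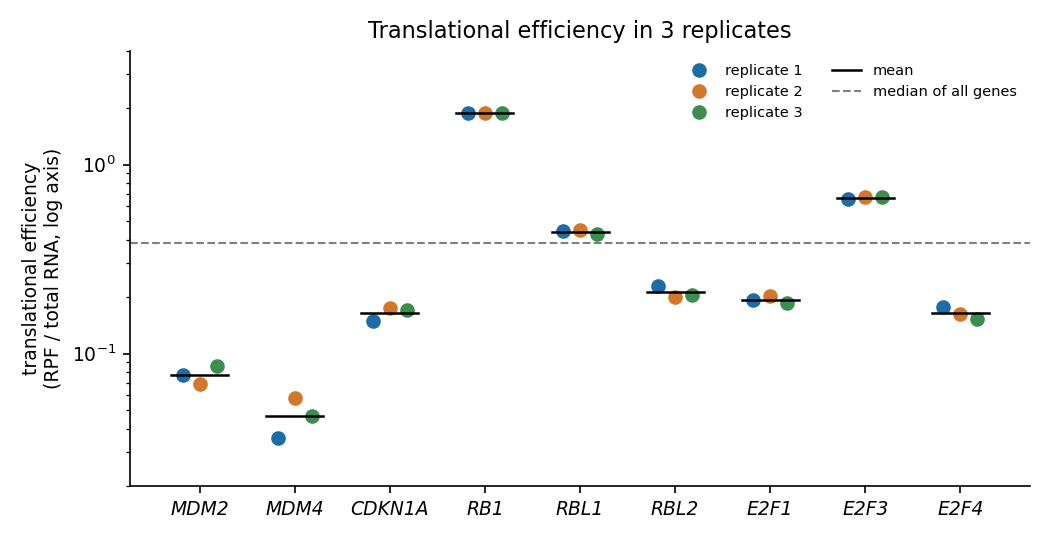
Translational efficiency of the 9 mRNAs (RPF over total RNA, no unit, log axis). Coloured points are replicates 1 to 3, black lines are their means and the dashed line is the median of all genes. RB1 stands at 1.87, above the other mRNAs, and MDM2 and MDM4 stand lowest.

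Among the regulators of p53, MDM2, the ubiquitin ligase that targets p53, had TE values of 0.0769, 0.0691 and 0.0855 in replicates 1, 2 and 3. Its mean of 0.0772 ± 0.00822 (SD, n = 3) was higher than that of only 3.98% of genes, and its log2(TE + 0.01) lay below the median (log2 difference -2.18, SE 0.07, limma adjusted p = 5.14e-06). MDM4, a relative of MDM2 that binds the activation domain of p53, had 0.0356, 0.0581 and 0.0466. The mean of 0.0468 ± 0.0113 (SD, n = 3) was exceeded by all but 0.751% of genes (log2 difference -2.81, SE 0.12, limma adjusted p = 1.20e-05). The ranges of MDM2 and MDM4 did not overlap, and MDM4 had the widest spread of the 9 mRNAs relative to its mean, with a coefficient of variation of 24.1%.

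CDKN1A, the p21 gene, had TE values of 0.148, 0.175 and 0.169, with a mean of 0.164 ± 0.0141 (SD, n = 3). That is 0.442 of the median on the log2(TE + 0.01) scale (log2 difference -1.18, SE 0.06, limma adjusted p = 3.17e-05). Its range lay above that of MDM2 and below that of E2F1 in every replicate.

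Among the RB family, RB1 had TE values of 1.86, 1.88 and 1.88, the closest agreement between replicates relative to the mean (1.87 ± 0.0105, SD, n = 3). It exceeded 90.6% of all genes and lay 4.79-fold above the median (log2 difference 2.26, SE 0.05, limma adjusted p = 1.83e-06). RBL1, which encodes p107, a partner of E2F4 and E2F5 in cycling cells, had 0.445, 0.450 and 0.428. Its mean of 0.441 ± 0.0114 (SD, n = 3) was close to the median (log2 difference 0.20, SE 0.05, limma adjusted p = 0.0128), and the call was lost without replicate 1 (adjusted p = 0.0516) or without replicate 2 (adjusted p = 0.0691). RBL2, which encodes p130, the family member that accumulates in resting cells, had 0.229, 0.198 and 0.204, with a mean of 0.210 ± 0.0163 (SD, n = 3) and a log2 difference of -0.84 (SE 0.06, limma adjusted p = 9.50e-05).

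Among the E2F factors, the activator E2F3 had TE values of 0.657, 0.673 and 0.676 (mean 0.669 ± 0.0104, SD, n = 3; log2 difference 0.79, SE 0.05, limma adjusted p = 4.61e-05). E2F1, the activator that also induces apoptosis when in excess, had 0.193, 0.202 and 0.184 (mean 0.193 ± 0.00892, SD, n = 3; log2 difference -0.95, SE 0.05, limma adjusted p = 3.23e-05). E2F4, which works mostly as a repressor with p107 and p130, had 0.177, 0.162 and 0.153 (mean 0.164 ± 0.0120, SD, n = 3; log2 difference -1.18, SE 0.06, limma adjusted p = 2.35e-05). From high to low the order of the 9 means was RB1, E2F3, RBL1, RBL2, E2F1, CDKN1A, E2F4, MDM2 and MDM4. The ranges of RBL2 and E2F1 overlapped, and so did those of CDKN1A and E2F4, whereas all other neighbours in this order were separate in the 3 replicates.

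Paralogs were compared within each replicate, in 5 pairs. MDM4 had 0.463, 0.842 and 0.544 of the TE of MDM2 in replicates 1, 2 and 3 (log2 difference -0.63, 95% interval -0.87 to -0.40, limma adjusted p = 8.99e-08). These 3 ratios differ widely, and the interval and p-value rest on a spread pooled over genes, not on that of this pair alone. With the mean of MDM2 over the replicates taken as a fixed value, the limma adjusted p was 0.0036. That fit leaves out the spread of MDM2 and is not a test between 2 measured mRNAs. RBL1 had 0.239, 0.239 and 0.228 of the TE of RB1 (log2 difference -2.06, interval -2.19 to -1.93, limma adjusted p = 5.37e-07). RBL2 had 0.123, 0.105 and 0.109 of it (log2 difference -3.10, interval -3.26 to -2.93, limma adjusted p = 3.39e-07). In the retinoblastoma family the founding member had the highest TE and p130 the lowest.

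E2F3 had 3.41, 3.33 and 3.67 times the TE of E2F1 (log2 difference 1.74, interval 1.57 to 1.92, limma adjusted p = 6.39e-08). E2F4 had 0.917, 0.802 and 0.829 of it (log2 difference -0.22, interval -0.41 to -0.04, limma adjusted p = 0.025), and this small difference lost its call without any 1 of the replicates (adjusted p from 0.0557 to 0.0944). All 5 pairs passed in the full data, against 96.2% of all genes compared with MDM2, 97.3% with RB1 and 89.1% with E2F1. In these fits every gene shares the error of the reference mRNA, so the spread that limma pools is largely that of the reference. The intervals and limma p-values of the pairs therefore do not measure how far the ratios of a pair differ between replicates. An exact sign-flip test over 3 replicates gave p = 0.25 for each pair, the smallest it can give.

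The occupancy table holds, for each codon, in-frame RPFs normalized for library size and divided by the abundance of the mRNA (TPM), with the replicates combined by the authors. Each value of the 8 mRNAs could be written in a single way as whole reads of 3 libraries, at a relative tolerance of 1e-10, so that the number of reads and each library's own value could be recovered. The libraries carry no replicate number in this table, and are given for each mRNA in order of the worth of a read, from the smallest. The reads recovered for an mRNA ranged from 751 for CDKN1A to 8691 for MDM2.

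In RB1 the mean occupancy per CDS codon was 0.128, with 0.129, 0.133 and 0.123 in the 3 libraries, from 6693 CDS reads over 929 codons. This was 2.85 times the median of all transcripts (0.0450), above 89.0% of them. E2F3 had 0.0560 (0.0564, 0.0573 and 0.0542 in the libraries). The other 6 mRNAs lay below the median: CDKN1A with 0.0412 (0.0427, 0.0440 and 0.0368), MDM2 with 0.0350 (0.0378, 0.0341 and 0.0332), RBL2 with 0.0191 (0.0188, 0.0201 and 0.0183), E2F4 with 0.0153 (0.0147, 0.0150 and 0.0163), MDM4 with 0.0148 (0.0154, 0.0153 and 0.0136) and E2F1 with 0.01004 (0.00959, 0.0102 and 0.0103). Values of 1 mRNA differed little between libraries, and only MDM4 and E2F4, as neighbours in this order, and CDKN1A and MDM2, overlapped in their ranges.

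**Figure D2:**
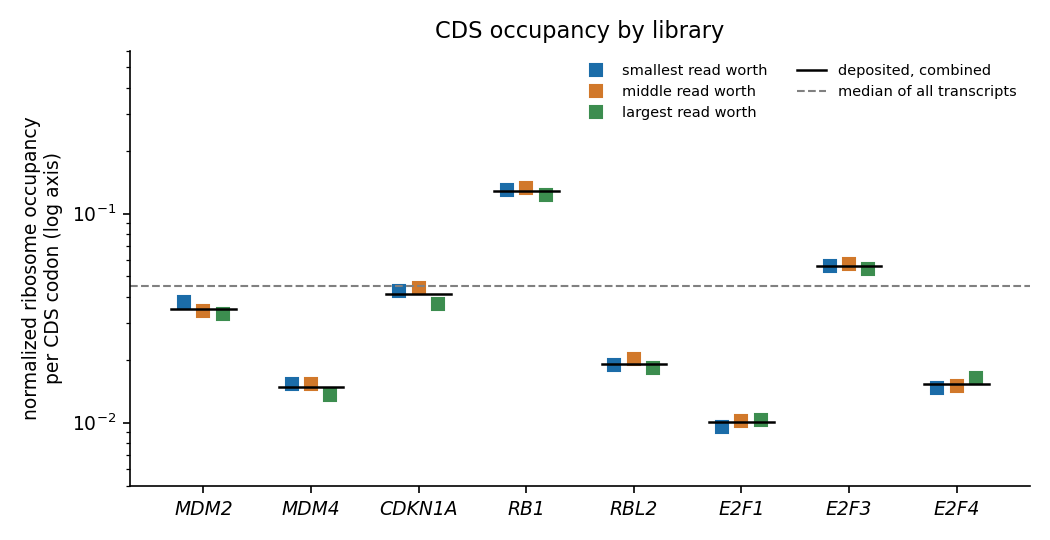
Normalized ribosome occupancy per CDS codon (authors' unit, log axis) of the 8 mRNAs in the table. Squares are the values of the 3 libraries, ordered within each mRNA by the worth of a read, black lines are the deposited combined values and the dashed line is the median of all transcripts (0.0450). RB1 and E2F3 stand above the median and the other 6 below it.

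TE and occupancy come from the same libraries and are not independent, but they ranked some of these mRNAs differently. Among the 6912 genes in both tables RB1 stood high in both, above 90.8% of genes in TE and 86.9% in occupancy. MDM4 stood low in both, above 0.666% and 6.12%. MDM2 exceeded 3.99% of genes in TE but 28.98% in occupancy, whereas E2F1 exceeded 24.0% in TE but only 2.56% in occupancy. The worth of a read also gives the relative abundance of each mRNA in total RNA. MDM2 and E2F4 were abundant, 4.73 and 3.88 times the median transcript, while RB1 was the scarcest of the 8 with 0.592 of it. E2F1 had 1.95, MDM4 1.49, E2F3 1.36, CDKN1A 1.17 and RBL2 1.02 times the median.

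Within the CDS, the mean occupancy of the last 75 codons exceeded that of the first 75 in 8 of 8 mRNAs, as it did in 50.8% of all transcripts with a CDS longer than 300 nt. The table's windows have no replicate number, so no test was made, and the ratio of the windows is given for each library. In RBL2 the first 75 codons had 0.00358 from 24 reads and the last 75 had 0.0225 from 159 reads, and the last window was 16.0, 5.20 and 4.30 times the first in the 3 libraries. E2F3 had 0.0140 and 0.0452 (3.17, 2.76 and 4.04 times) and E2F1 had 0.00166 and 0.00481 (4.80, 2.78 and 2.29 times), of which the last was 0.00285 without its highest codon. In the tumour suppressor RB1 the windows had 0.117 and 0.191 (1.55, 1.73 and 1.63 times), and with windows of 50 codons 0.0537 and 0.175. MDM4 had 1.25, 2.19 and 2.1 times, MDM2 1.34, 1.43 and 1.58 times, and E2F4 1.23, 1.11 and 1.41 times as much in the last window, and in CDKN1A (1.54, 0.985 and 1.49 times) the libraries were not all on the same side. With windows of 50 codons MDM2 had 0.0117 and 0.0297 instead of 0.0197 and 0.0284, MDM4 0.00613 and 0.00769 instead of 0.0101 and 0.0175, and E2F4 0.00923 and 0.0115 instead of 0.0164 and 0.0204. CDKN1A had 0.0358 and 0.0364 instead of 0.0392 and 0.0509, so its windows were then nearly equal.

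**Figure D3:**
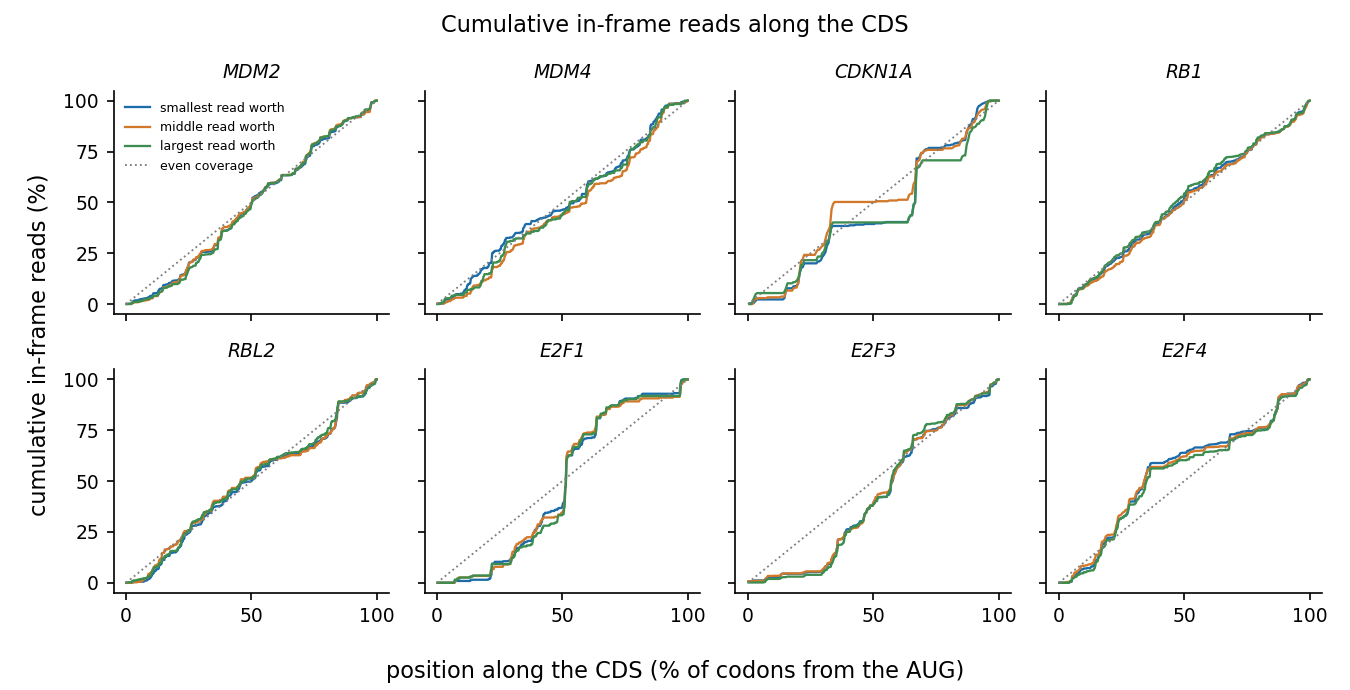
Cumulative in-frame reads (% of the reads of the CDS) against position along the CDS (% of codons from the AUG) for 8 mRNAs. Coloured lines are the 3 libraries and the dotted line is even coverage. E2F1, E2F3 and E2F4 leave the dotted line in all 3 libraries, and CDKN1A rises in steps.

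The share of reads in the early part of the CDS varied among the mRNAs. In E2F4, 62.4% of the CDS reads lay in the first 50% of the codons, in E2F3 39.1% and in E2F1 35.7%, compared with 43.5% in CDKN1A, 44.9% in MDM4, 49.4% in MDM2, 50.97% in RBL2 and 52.3% in RB1. Single codons past the midpoint weigh on 2 of these shares. Codon 226 of E2F1 held 102 of its 804 CDS reads, and codon 111 of CDKN1A held 122 of 750. The libraries of CDKN1A also differed, and reached 50% of their reads at 66.7%, 34.5% and 67.3% of the CDS. Long stretches without any in-frame read, of 12 or more codons, covered 34.2% of the E2F1 CDS in 7 runs, 12.7% of E2F3 in 3 runs and 12.1% of RBL2 in 8 runs. E2F4 and RB1 had 1 run each, of 19 and 22 codons, and MDM2, MDM4 and CDKN1A had 0. In RB1 the run spanned codons 8 to 29, right after the start, where even coverage would give 158 reads, and 0 reads allow up to 3. The runs of E2F1 together would hold 275 reads at even coverage. In E2F1 the first codon with a read was codon 29, in E2F4 codon 11 and in RB1 codon 7.

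In each mRNA that had such runs, GC content was higher inside them than in the rest of the CDS. It was 83.3% inside the run of RB1 and 37.9% in the rest of its CDS, 81.9% and 50.5% in E2F3, 76.4% and 59.3% in E2F1, 68.4% and 57.3% in E2F4, and 56.8% and 43.7% in RBL2. None of the codons in the runs lay where a 28-mer of the mRNA also occurs in a transcript of another gene. Between mRNAs the number of runs did not follow the GC content of the whole CDS. E2F1 with 65.1% had 7 runs, CDKN1A with 63.6% had 0 and RBL2 with 45.3% had 8. Reads per codon of the CDS also differed, with 1.81 in RBL2, 1.84 in E2F1, 2.05 in MDM4 and 15.7 in MDM2. The part of GC content or of read number in the missing reads was not tested. Over the whole CDS, 11.7% of the 28-mers of E2F3 and 2.14% of those of E2F4 occur in transcripts of other genes, and under 1% in each of the other mRNAs, so that reads of E2F3 are less certain than the others.

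The highest codon of each CDS held between 1.49% of the summed occupancy (RB1) and 16.0% (CDKN1A), with a median over all transcripts of 4.95%. In 3 mRNAs the same codon was the highest in every library, and their surroundings are shown because the reads pile up there, 30 nt of the sense strand with the codon in capitals (GENCODE 44 on GRCh37, which is hg19).
MDM2 codon 183 (chr12:69222574-69222576): tcagatgaattatctGGTgaacgacaaaga
CDKN1A codon 111 (chr6:36652209-36652211): gcagaggaagaccatGTGgacctgtcactg
E2F1 codon 226 (chr20:32266054-32266056): gaccacctgatgaatATCtgtactacgcag

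In CDKN1A codon 111 had 67, 26 and 29 reads in the 3 libraries, 26.5 times the mean of its CDS, and lies in exon 2 of the 3 exons of the transcript matched. In E2F1 codon 226 had 42, 37 and 23 reads, 55.3 times the mean, and codon 224 was the second highest. It lies in exon 4 of 7. In MDM2 codon 183 had 93, 72 and 68 reads, 15.4 times the mean, in exon 8 of 11. No transcript of another gene holds the 28-mers around these 3 codons. In RB1 (codon 732), RBL2 (codon 957), MDM4 (codon 418), E2F3 (codon 307) and E2F4 (codon 362) the highest codon was not the same in every library, and the 28-mers around the codon of E2F3 occur in 1 other gene.

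Ribosomes can also be found in the 5′UTR, for example on short upstream open reading frames (uORFs), which often lower initiation at the main AUG. The start codons of the 9 mRNAs are shown with 9 nt before and 1 nt after them, the AUG in capitals as ATG, from the GENCODE transcript with the same CDS length. RBL1, which has no entry in the occupancy table, is shown by the transcript GENCODE marks as canonical.
MDM2 (chr12:69202258-69202260): aaaccccggATGg
MDM4 (chr1:204494647-204494649): actaccaaaATGa
CDKN1A (chr6:36651879-36651881): tcaggcgccATGt
RB1 (chr13:48878049-48878051): aaaggcgtcATGc
RBL1 (chr20:35724329-35724331): cctgaagggATGt
RBL2 (chr16:53468469-53468471): gggtgcgctATGc
E2F1 (chr20:32274068-32274070): gtgagcgtcATGg
E2F3 (chr6:20402464-20402466): gagcgagagATGa
E2F4 (chr16:67226131-67226133): gcgggcgcgATGg

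A purine 3 nt before the AUG, the best known feature of an efficient start site, was present in 8 of these 9 sequences, and MDM2 is the exception. It was present in 85.8% of 8636 mRNAs of the occupancy table that matched a GENCODE transcript. An upstream ATG was present in the GENCODE 5′UTR of MDM2, MDM4, RBL2 and E2F1, and absent from that of RB1, E2F3 and E2F4. Of the mRNAs matched, 44.1% had an upstream ATG. The match was by CDS length, so the GENCODE 5′UTR can differ from the 5′UTR in which reads were counted. It has 139 nt against 52 codons in MDM4, 86 nt against 36 in RBL2, 354 nt against 105 in E2F3 and 73 nt against 17 in E2F4. The lengths also differ in MDM2 (301 nt against 98 codons), RB1 (162 nt against 52) and E2F1 (121 nt against 43). For CDKN1A several transcripts share the CDS and differ in the 5′UTR, so its upstream sequence is not described.

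In MDM2, 224 in-frame reads lay in the 5′UTR, and 214 of them (95.5%) fell in a uORF of 14 codons that begins 231 nt before the main AUG, in the same frame. Its start codon alone had 72, 70 and 41 reads in the 3 libraries, an occupancy of 0.412. Its last sense codon had 8, 4 and 2 reads, and 2 reads fell in the last 17 codons before the main AUG. The mean occupancy of the uORF was 0.930, 1.09 and 0.901 times that of the CDS in the 3 libraries, but 183 of its 214 reads lay on the start codon. This ratio therefore mostly describes that codon, and does not show that the rest of the uORF was as densely occupied as the CDS. The start and the stop of this uORF are shown because nearly all upstream reads lie between them, with the start and stop codons in capitals.
MDM2 uORF start (chr12:69202027-69202029): tgtgtcggaaagATGgagcaagaagcc
MDM2 uORF stop (chr12:69202069-69202071): cggccgcgacccctcTGAccgagatcc

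This uORF lies in exon 1 of the MDM2 transcript, and no transcript of another gene holds the 28-mers around its start. A further uORF of MDM2, also of 14 codons, begins 97 nt before the AUG in another frame, which the table does not cover, and 0 in-frame reads lay within it.

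**Figure D4:**
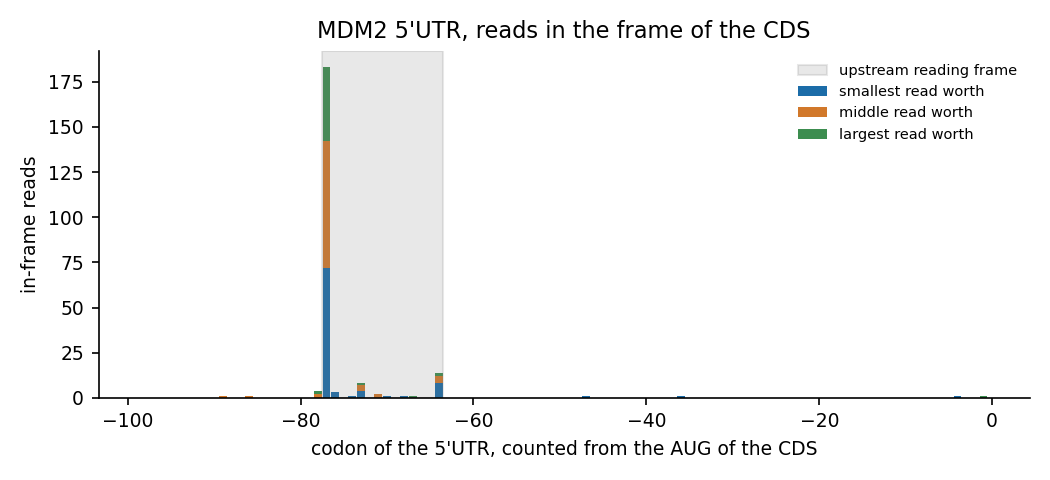
In-frame reads per codon of the MDM2 5′UTR, with codons counted back from the AUG of the CDS. Bars are stacked by library and the grey band marks the uORF of 14 codons. A single bar of 183 reads stands at codon -77, the start codon of the uORF.

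MDM4 had 33 in-frame reads in its 5′UTR, and 27 of them (12, 9 and 6 in the 3 libraries) fell within the bounds of a uORF of 5 codons that begins 121 nt before the AUG, in another frame. Its second upstream ATG, 51 nt before the AUG and in frame, opens a uORF of 4 codons with 2 reads. In E2F1, 9 of 10 upstream reads fell within the bounds of a uORF of 16 codons that begins 56 nt before the AUG, in another frame. Only reads in the frame of the CDS are counted, so the reads within uORFs of another frame do not show that those uORFs were translated. In RBL2 an in-frame uORF of 10 codons, 57 nt before the AUG, had 0 reads, as did the whole 5′UTR. E2F3, whose GENCODE 5′UTR holds no ATG, had 61 reads over 21 codons (27, 22 and 12 in the 3 libraries). RB1 had 12 reads, and CDKN1A and E2F4 had 0, which allows up to 3.

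Per codon the 5′UTR occupancy was 30.2% of that of the CDS in MDM4, 14.6% in MDM2, 12.4% in E2F1, 8.02% in E2F3 and 3.02% in RB1. Next to the AUG, over 17 codons (51 nt) of the 5′UTR, E2F3 had 0.00442 from 11 reads, RB1 0.00323 from 4 reads, E2F1 0.00282 from 9 reads, MDM4 0.00156 from 4 reads and MDM2 0.000290 from 2 reads, compared with a median of 0.00195 over the 6907 transcripts whose 5′UTR has at least 34 codons. With so few reads the order of these values was not resolved between libraries: in RB1 all 4 reads came from 1 library. Over the 10 codons next to the AUG the values were 0.00752 in E2F3, 0.00549 in RB1 and 0.00423 in E2F1.

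The genes that act with these regulators were described by 5 lists, drawn up with earlier results of these data known. In the E2F target list, which holds replication and cell cycle genes, 24 of 36 genes were called higher than the median in TE at an FDR of 0.05, 7 were called lower and 5 were not called (the same limma fit as above), and the median TE of the list was 0.593 against 0.385 for all genes. The background for the counts of every list is that 44.7% of all genes were called higher and 44.6% lower. High in this list were MAD2L1 of the spindle checkpoint with 9.22 ± 0.280 and the topoisomerase TOP2A with 2.79 ± 0.275 (SD, n = 3). Low in it were POLD1, the catalytic subunit of DNA polymerase delta, with 0.0495 ± 0.00195 and the DNA ligase LIG1 with 0.0774 ± 0.0104 (SD, n = 3).

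**Figure D5:**
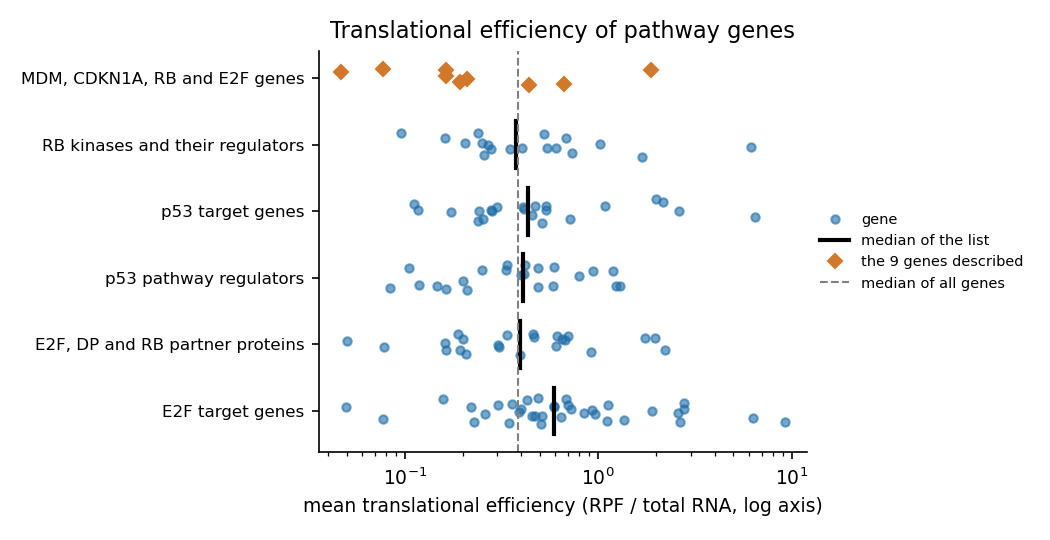
Mean translational efficiency (log axis, no unit) of the genes of 5 pathway lists and of the 9 genes described. Each point is the mean of 3 replicates of a gene, black bars are list medians and the dashed line is the median of all genes (0.385). The E2F targets have a median of 0.593 and the other lists lie between 0.376 and 0.435.

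Of the partner proteins of E2F and RB, 11 of 23 genes were called higher, 11 lower and 1 was not called. The histone deacetylases HDAC2 and HDAC1 had 2.20 ± 0.0813 and 1.96 ± 0.0486 and the histone binding protein RBBP4 had 1.75 ± 0.135, all of which RB recruits to promoters. The corepressor CTBP1 had 0.05004 ± 0.00900, LIN54, a DNA binding subunit of the DREAM complex, had 0.0778 ± 0.0116, and RBBP8, also known as CtIP, had 0.161 ± 0.0392 (SD, n = 3). Of the kinases that phosphorylate RB and their regulators, 8 of 18 were called higher, 8 lower and 2 were not called. CKS1B had 6.13 ± 0.295, and the cyclins D2 and D1, genes CCND2 and CCND1, had 1.68 ± 0.0499 and 1.02 ± 0.0532, while cyclin D3, gene CCND3, had 0.0956 ± 0.0143. CCNE1, cyclin E1, had 0.160 ± 0.00945 and SKP2, which marks CDK inhibitors for degradation, 0.205 ± 0.0161 (SD, n = 3).

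Of the p53 pathway regulators, 8 of 22 were called higher, 9 lower and 5 were not called. The ribosomal proteins RPL5, RPS7 and RPL23, which can bind MDM2, had 1.29 ± 0.0522, 1.23 ± 0.0667 and 1.19 ± 0.0278, and TP53BP1, a DNA damage mediator, had 0.119 ± 0.0135 (SD, n = 3). Of the p53 targets, 10 of 22 were called higher, 8 lower and 4 were not called. RPS27L had 6.46 ± 0.134, the desmosomal protein PERP 2.60 ± 0.0843 and TRIAP1, an inhibitor of apoptosis, 2.17 ± 0.0919. DDB2, which recognizes ultraviolet damage, had 0.111 ± 0.00821, the apoptosis gene BBC3 0.117 ± 0.0312 and the death receptor FAS 0.173 ± 0.0144 (SD, n = 3). Of all genes 44.7% were called higher and 44.6% lower. The shares called higher were 66.7% of the E2F targets, 47.8% of the partner proteins, 45.5% of the p53 targets, 44.4% of the RB kinases and 36.4% of the p53 regulators, and those called lower were 19.4%, 47.8%, 36.4%, 44.4% and 40.9%. They are given as a description, and no list was tested against the background.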

How the data were processed

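A pair of deposited tables were used. The first holds, per the file headers, translational efficiency for each of 3 replicates, which the authors computed as a ratio of RPFs over total RNA. The sources used here do not give the formula, and the values were treated as a ratio on a linear scale. The second holds ribosome occupancy per codon, with replicates combined by the authors: in-frame RPFs of 28 to 30 nt on the hg19 transcriptome, placed with an offset of 13 nt, scaled to library size and then to the TPM of the mRNA. According to the submitters' processing notes, cutadapt 1.16, Bowtie 1.1.2, TopHat2 2.1.1 and HTSeq 0.9.1 were used, while the study's methods name Hisat2 for total RNA. Line breaks inside the values of 31 transcripts were repaired, none of them described here.

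TE was tested with limma 3.58.1 (R 4.3.3) on log2(TE + 0.01) minus the median of all values, with no filter and Benjamini-Hochberg adjustment over all genes at an FDR of 0.05. The fold understates changes of low values. Paralogs were tested against RB1, MDM2 or E2F1 within each replicate. Total RNA and RPFs of the same replicate come from the same lysate, so the pairing is part of the ratio. Reads were recovered from the occupancy table as whole multiples of 3 steps, with 3 reads as the floor of a count of 0, which covers counting error only. Both procedures were tested on simulated data. Depth per library is unknown for the TE table.

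The rule for the members uses gene symbols alone and no measured value, but these genes and the lists were chosen with earlier results of these data known. All 9 members are named, with the 3 highest and the 3 lowest genes of each list by TE; 4 genes that this rule takes are not reported here. Sequences and positions are those of GENCODE 44 on GRCh37 (hg19). Python 3.11.15, numpy 2.4.6 and pandas 2.3.3 were used.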

Additional observations from a re-analysis of the deposited data

Results flagged for a closer look

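In-frame reads in the 3′UTR, which no comparison above uses, exceeded the 3 reads that a count of 0 allows in 3 of the 8 mRNAs. MDM2 had 672 (252, 245 and 175 in the 3 libraries), of which 628 lay in 3 neighbouring codons around codon 809 after the stop (chr12:69236054-69236056 for that codon, 198, 187 and 121 reads). Of the reads in this 3′UTR, 98.5% lay where 28-mers also occur in transcripts of other genes, and around codon 809 these were 2 genes. MDM4 had 66 (32, 21 and 13), of which 81.8% lay at such shared sequence, and around its highest codon, codon 231 after the stop, 30 other genes hold the same 28-mers. E2F3 had 18 (7, 6 and 5), none at shared sequence, and 9 of them lay at codon 16 after the stop (chr6:20490707-20490709). The part of shared sequence in these reads was not tested. CDKN1A, RB1, E2F4, RBL2 and E2F1 had 0 to 2 reads there.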

How the results depend on the processing

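The number of members that differed from the median TE was 9 with a pseudocount of 0.1 or 0.001 and with the replicate block (the median of each replicate removed from its own values), which changed no call of a member, and 8 among genes with a mean TE of at least 0.05, since MDM4 falls below it. It was 8 or 9 when a replicate was left out, with RBL1 as the member lost. Of the pathway list genes, 104 were called in the full data, 105 with the replicate block and 102 to 104 when a replicate was left out. Among the paralog pairs 5 were called without the replicate block, which here takes the mean of the reference mRNA as a fixed value. When any replicate was left out 4 were called, and E2F4 against E2F1 was lost. With a pseudocount of 0.1 the log2 differences of low mRNAs shrank, from -2.81 to -1.72 for MDM4 and from -2.18 to -1.45 for MDM2 against the median, and from -0.63 to -0.27 for MDM4 against MDM2. No direction of TE reversed in 96 alternative values of members and pairs. Of 88 alternative occupancy values, 33 moved by more than the SD between libraries, mostly with windows of 50 codons, without the highest codon of a window or with the median per codon, which is 0 for CDKN1A, E2F1 and RBL2. The last window stayed above the first in 8 of 8 mRNAs under all 3 alternatives for windows. In CDKN1A the windows of 50 codons were nearly equal, with 0.0358 and 0.0364. Low read numbers limit the 5′UTR values, and the combined table allows no test between replicates.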
